A study of Mus musculus with 30 samples.

Results

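The retina of *E168d2neo/+* mice was followed from postnatal day 10 (P10) to postnatal day 21 (P21) in 6 RNA-seq libraries, 3 for each age, out of 30 libraries in the series. The members were the 3 P10 and the 3 P21 libraries labelled *E168d2neo/+*, lettered A, B and C within each age. The question was how the transcripts of photoreceptor cells changed between these ages in a retina in which many of them began below wild-type (WT) level. Each library held RNA of 4 whole retinas, pooled from a male and a female mouse of strain C57BL6/J. *E168d2neo/+* mice are heterozygous for a knock-in allele with the same mutation as *E168d2* and with a *neo* cassette left in place, which the study describes as making less of the mutant product. The groups set beside them were WT at P10 and P21 and *E168d2/+*, the heterozygote of the same mutation without the cassette, at P10 and P21, each with 3 libraries. For *Obox6* alone the range over all other libraries of the series is given too. These add the *E168d2/d2* homozygote at P10, and *R90W/+* at P10 and P21 and *R90W/W* at P10, which carry another mutation. The P21 WT mice were littermates of mutants, and for the P10 WT mice the sources used here do not say so. Values are reads on a gene scaled to a common library total (CPM), without correction for transcript length, so that levels are compared here between libraries and not between genes.

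Rods and cones are the light-sensing neurons of the retina. An opsin that has caught a photon activates the G protein transducin, transducin activates the phosphodiesterase PDE6, and the fall in cyclic GMP closes a cation channel in the outer segment. Arrestins, an opsin kinase, and calcium sensors that act on guanylate cyclase then end the response. In the mouse the outer segments grow in the weeks after birth, and photoreceptor transcripts rise over that time.

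The promoters of some of the genes described below are shown first, because their transcripts were the ones followed between the ages. Of 37 named genes of the rod, cone, shut-off and visual cycle lists, 23 had exactly 1 promoter and 3 had more than 1 in the RefSeq table (GRCm38.p6). The sequences are the 250 bases before the RefSeq start of transcription, 5′ to 3′ on the strand of the gene, and each was found at 1 place in mm9, the build of the deposited data. Capitals mark TAATCC or its reverse complement GGATTA, a core bound by homeodomain proteins such as OTX2, searched on both strands. The first 5 genes changed more with age in *E168d2neo/+* than in WT, and for the last 2 such a difference was not called.
*Cngb1* (chr8:97830486-97830735, minus strand): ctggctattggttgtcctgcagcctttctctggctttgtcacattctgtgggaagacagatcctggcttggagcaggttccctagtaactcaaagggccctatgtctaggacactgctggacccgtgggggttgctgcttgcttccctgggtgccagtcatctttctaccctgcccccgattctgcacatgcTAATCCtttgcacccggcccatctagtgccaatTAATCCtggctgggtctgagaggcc
*Gucy2f* (chrX:138631480-138631729, minus strand): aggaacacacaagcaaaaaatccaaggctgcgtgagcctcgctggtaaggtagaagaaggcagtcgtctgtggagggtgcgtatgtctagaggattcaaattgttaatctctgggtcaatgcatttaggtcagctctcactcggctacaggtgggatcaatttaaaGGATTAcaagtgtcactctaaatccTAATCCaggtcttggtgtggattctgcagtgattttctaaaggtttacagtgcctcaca
*Abca4* (chr3:121747128-121747377, plus strand): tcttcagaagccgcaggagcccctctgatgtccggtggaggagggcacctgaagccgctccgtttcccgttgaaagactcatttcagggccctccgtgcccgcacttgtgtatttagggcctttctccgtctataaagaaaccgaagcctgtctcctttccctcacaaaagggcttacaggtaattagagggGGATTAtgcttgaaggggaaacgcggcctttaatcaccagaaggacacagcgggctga
*Opn1mw* (chrX:71372555-71372804, plus strand): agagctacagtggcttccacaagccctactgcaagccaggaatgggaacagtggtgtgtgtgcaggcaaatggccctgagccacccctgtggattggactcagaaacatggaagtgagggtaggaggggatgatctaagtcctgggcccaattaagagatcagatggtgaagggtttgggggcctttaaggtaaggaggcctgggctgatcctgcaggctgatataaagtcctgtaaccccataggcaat
*Arr3* (chrX:97800586-97800835, plus strand): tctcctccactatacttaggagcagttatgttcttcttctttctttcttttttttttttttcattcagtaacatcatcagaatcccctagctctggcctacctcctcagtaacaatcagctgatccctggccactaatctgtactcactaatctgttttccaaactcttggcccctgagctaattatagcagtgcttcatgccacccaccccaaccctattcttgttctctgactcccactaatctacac
*Guca1a* (chr17:47537556-47537805, minus strand): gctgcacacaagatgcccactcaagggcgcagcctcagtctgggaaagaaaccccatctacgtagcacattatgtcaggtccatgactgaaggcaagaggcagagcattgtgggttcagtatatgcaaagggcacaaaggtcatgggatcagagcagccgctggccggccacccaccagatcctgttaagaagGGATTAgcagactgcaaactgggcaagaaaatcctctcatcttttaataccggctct
*Gnat2* (chr3:107895734-107895983, plus strand): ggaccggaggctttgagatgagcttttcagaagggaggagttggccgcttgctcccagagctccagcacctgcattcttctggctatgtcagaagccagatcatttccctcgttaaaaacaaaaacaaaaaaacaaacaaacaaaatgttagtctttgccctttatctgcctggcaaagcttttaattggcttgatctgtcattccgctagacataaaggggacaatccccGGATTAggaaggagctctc

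These letters stood in 11 of the 23 promoters (47.8%), against 2054 of all 32851 promoters in the table (6.25%). Among the 10 genes whose change was larger than that of WT 4 promoters held them, and among the other 13 there were 7. The matches began 58 and 25 bases before the start in *Cngb1*, 84 and 59 in *Gucy2f*, 58 in *Abca4*, 57 in *Guca1a* and 19 in *Gnat2*. A match describes the letters and says nothing of binding, and the windows of *Opn1mw* and *Arr3* held neither form.

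The *E168d2neo/+* libraries held 19.3 to 26.0 M reads on genes, estimated from the step between CPM values, and 3 reads stood for 0.115 to 0.155 CPM. Of the 10 rod and 11 cone genes chosen as markers every one was listed and tested. Lens transcripts made up 1.32% of the CPM in *E168d2neo/+* P21 replicate C and at most 0.00812% in the other *E168d2neo/+* and the WT libraries. Leaving that library out gave 1066 genes changed with age in place of 1030. WT P21 replicate A held 3.05 CPM of *Xist*, the transcript of the inactive X chromosome of females, against 1500 and 1640 in its fellow libraries, and so does not show the stated mixture of sexes. Without it, the change with age differed from WT in 506 genes in place of 757.

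Between P10 and P21, 1030 of the 12190 genes tested in *E168d2neo/+* changed (8.45%), 538 higher (4.41%) and 492 lower (4.04%) at P21. A call required a false discovery rate (FDR) no higher than 0.05 and a change of 2-fold or more on log2(CPM + 0.1), and a scale with 0.1 CPM added understates the change of low genes. The FDR alone was met by 8243 genes (67.6%), with 22.1% of the tested genes higher and 45.5% lower. Most tested genes thus moved at least slightly as a share of the library total, which also shifts when other genes rise or fall. In 8792 genes (72.1%) the libraries of one age did not overlap those of the other, and this held for every called gene. The median change of all tested genes was -0.148, and with each library centred on its median, 66.8% of the called genes were higher instead of 52.2%. In the same test WT had 587 genes higher (4.81%) and 491 lower (4.02%) of 12203, 8.83% in all.

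Most of these changes were shared with WT. Among 12013 genes tested in both genotypes, 431 were higher at P21 in both, which is 83.2% of the 518 higher in *E168d2neo/+* and 77.9% of the 553 higher in WT. Another 365 were lower in both, 78.3% of 466 in *E168d2neo/+* and 78.7% of 464 in WT, and 0 genes were called in opposite directions. The genes called higher in WT had a median log2 change of 1.42 in WT and 1.36 in *E168d2neo/+*, and those called lower had -1.32 and -1.24. These genes were chosen on their WT values, so that the larger WT medians describe the choice as well.

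The change itself differed between the genotypes in 757 of 12380 genes by the interaction of genotype and age (6.11%), at an FDR of 0.05 or less, with 445 more positive (3.59%) and 312 more negative (2.52%) in *E168d2neo/+*. Of these, 86 differed by 2-fold or more. The count moved with single libraries. It was 488 without WT P10 replicate A, 432 without WT P10 replicate B, 415 without *E168d2neo/+* P21 replicate A, 440 without *E168d2neo/+* P21 replicate B and between 506 and 900 when another library was left out. Without WT P21 replicate A the more positive genes numbered 282 in place of 445.

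**Figure D1:**
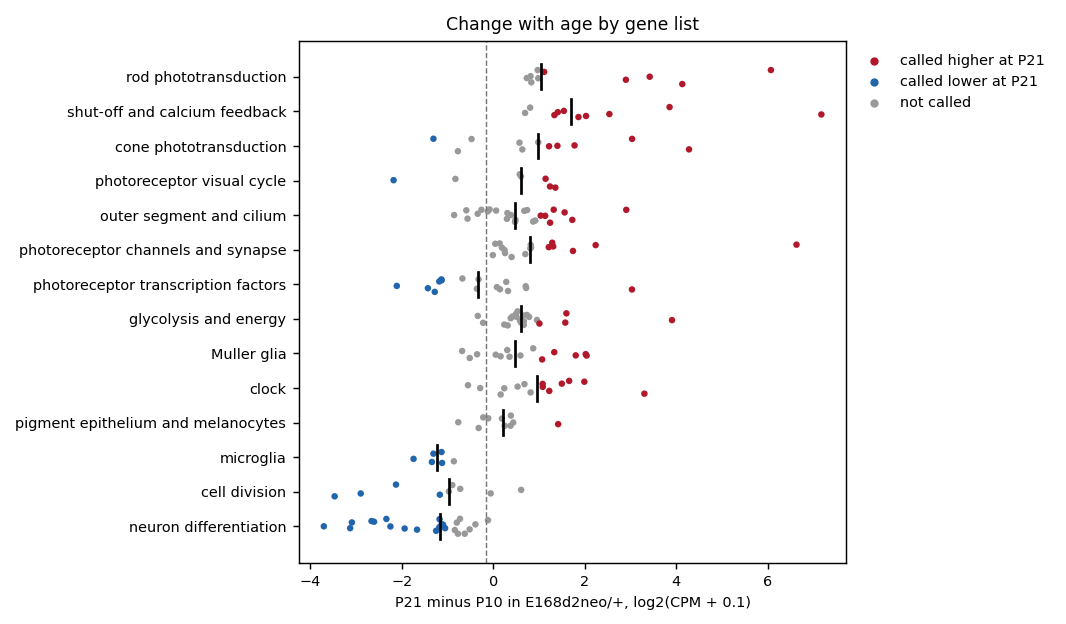
Log2 change from P10 to P21 in *E168d2neo/+* for the tested genes of 14 lists, 1 point a gene, with the list's median as a black bar and the median of all tested genes, -0.148, as a dashed line. Colour marks genes called higher or lower at P21, and the lists of photoreceptor function lie to the right of the dashed line while microglia, cell division and neuron differentiation lie to its left.

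Rod phototransduction genes were higher at P21, and their distance from WT became smaller. Of 10 tested, 5 rose and 0 fell, with a median log2 change of 1.05, against 4.41% of all tested genes called higher. In bulk retina, fewer cells of a type and less RNA in each cell cannot be told apart. *Gnat1* encodes the alpha subunit of rod transducin (mm9 chr9:107576808-107581923). It stood at 113, 146 and 149 CPM in P10 libraries A, B and C and at 9333, 8969 and 8828 CPM at P21. The groups lay far apart, and the log2 change was 6.07 ± 0.0931 (SE, n = 3 libraries an age, FDR 6.34e-12). In WT it went from 716, 666 and 626 to 9788, 10527 and 10217 CPM. *E168d2neo/+* thus held 20.3% of the WT mean at P10 and 88.8% at P21. The change exceeded that of WT by 2.14 ± 0.117 log2 (FDR 1.78e-08), and at P21 the distance of -0.17 from WT did not pass the test (FDR 0.219). Every *E168d2neo/+* P21 library still lay below every WT P21 library.

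The sodium, calcium and potassium exchanger of the rod outer segment, *Slc24a1*, moved in the same way. Its P10 libraries held 73.5, 84.5 and 85.6 CPM and its P21 libraries 1440.4, 1455 and 1364 CPM, without overlap, a log2 change of 4.13 ± 0.0668 (FDR 6.43e-12). In WT it went from 244, 242 and 242 to 1675, 1677 and 1635 CPM, so that *E168d2neo/+* went from 33.5% to 85.4% of WT. The catalytic PDE6 subunit *Pde6a* rose from 253, 288 and 289 to 2121, 2006 and 2055 CPM (log2 2.90 ± 0.0646), from 49.7% to 83.6% of WT. Both genes were still below WT at P21, with FDR 0.0101 and 0.00424. *Pde6g*, the inhibitory subunit of PDE6, rose by 1.11 ± 0.0705 log2. Its change exceeded that of WT at FDR 0.0392 in all 12 libraries, and in 11 of the 12 fits that left 1 library out this call was lost, at FDR 0.057 to 0.095.

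The other rod genes stayed under the 2-fold limit. Log2 changes were 0.83 for the transducin beta subunit *Gnb1*, 0.97 for its gamma partner *Gngt1* and 0.73 for the second catalytic PDE6 subunit *Pde6b*. The rod channel subunits *Cnga1* and *Cngb1* had 0.98 and 0.82. All of these passed the FDR, as 67.6% of tested genes did. They had begun nearer to WT, between 65.6% of it for *Cngb1* and 94.4% for *Gnb1*, and *Cngb1* alone among them changed more than in WT (difference 0.33 ± 0.0628, FDR 0.00519). Over the 10 rod genes the median log2 ratio to WT was -0.65 ± 0.09 (SD, n = 3 libraries) at P10 and -0.22 ± 0.017 at P21. At P10 9 of the 10 were below WT by FDR, against 11.1% of all genes, and at P21 6 were, against 5.67%.

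Most genes that end the light response or sense calcium rose. Of 10 tested, 8 rose and 0 fell, against 4.41% of all tested genes called higher, with a median log2 change of 1.70. *Guca1b*, a guanylate cyclase activating protein that senses calcium, was low at P10, with 5.48, 3.68 and 3.67 CPM. At P21 it reached 649.9, 565 and 645 CPM. This log2 change of 7.17 ± 0.132 (FDR 1.59e-11) was the largest rise of any gene called in *E168d2neo/+*. *Guca1b* passed the filter of 5 CPM through its P21 libraries alone, the age at which it was high. WT went from 36.2, 35.0 and 30.8 to 884, 799 and 925 CPM, and the difference between the changes was 2.50 ± 0.168 (FDR 1.39e-07). From 12.6% of WT it came to 71.3%. At P21 it was below WT at FDR 0.0132, a call that was lost without *E168d2neo/+* P21 replicate B (FDR 0.0756) and without WT P21 replicate C (FDR 0.0606).

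*Rcvrn* encodes recoverin, the calcium sensor that inhibits the opsin kinase. It held 91.9, 109 and 116 CPM at P10 and 598, 638 and 597 CPM at P21 (log2 2.54 ± 0.0796, FDR 6.14e-10). In WT it was already high at P10, at 549.7, 547 and 565 CPM, and reached 862, 957 and 962 CPM. Its P21 level in *E168d2neo/+* was thus close above the level WT had at P10, and it went from 19.1% to 65.9% of WT of the same age. The P21 distance of -0.60 ± 0.0697 log2 passed the test (FDR 2.11e-05).

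*Guca1a*, the neighbor of *Guca1b* on chromosome 17, was not found to come nearer to WT. The genes face each other, *Guca1b* at mm9 chr17:47522342-47529916 on the plus strand and *Guca1a* at chr17:47531509-47537533 on the minus strand, and their annotated exons do not overlap. *Guca1a* rose from 15.7, 17.2 and 15.1 to 249, 203 and 248 CPM, a log2 change of 3.85 ± 0.0873, and in WT from 30.8, 29.7 and 30.6 to 497, 431 and 428 CPM. It was at 52.7% of WT at P10 and at 51.6% at P21, with a difference between the changes of -0.04 ± 0.112 (FDR 0.889).

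The remaining genes of this list divided in the same manner. The guanylate cyclases *Gucy2e* and *Gucy2f* rose by 1.41 and 1.86 and came from 55.4% and 45.4% to 73.2% and 81.4% of WT, each by more than WT changed (FDR 0.00138 and 0.000519). The opsin kinase *Grk1* rose by 1.54, the GTPase-activating partners *Rgs9bp* and *Gnb5* by 2.03 and 1.34, and for these a difference from the change in WT was not called. Rod arrestin, *Sag*, had a log2 change of 0.81, under the 2-fold limit, and a difference from WT of -0.04 ± 0.0797. *Rgs9*, which speeds the shut-off of transducin, had 0.69 against 0.95 in WT. That difference of -0.25 ± 0.0628 passed at FDR 0.0247 and was lost at FDR 0.0639 to 0.0818 in 4 of the 12 fits that left out 1 library. The list's median ratio to WT was -0.70 ± 0.026 at P10 and -0.33 ± 0.065 at P21.

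**Figure D2:**
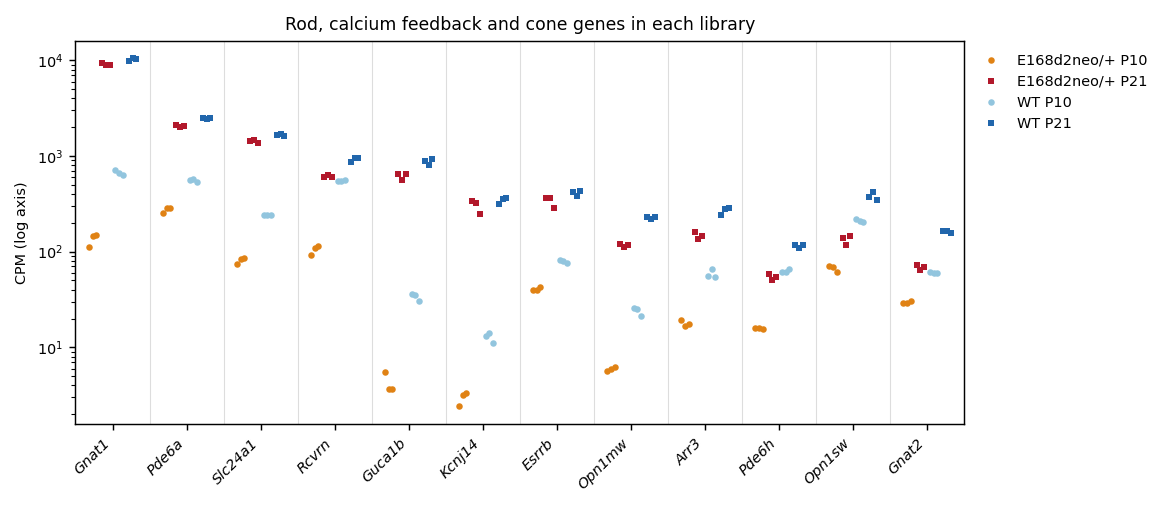
CPM on a log axis of 12 photoreceptor genes in each of 12 libraries, 1 point a library, circles for P10 and squares for P21. The *E168d2neo/+* P10 points lie below the WT P10 points in all 12 genes, and the P21 points lie below the WT P21 points in every gene but *Kcnj14*, close to them for *Gnat1* and further away for the cone genes *Opn1sw*, *Opn1mw* and *Gnat2*.

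Cone phototransduction genes rose in part and stayed further from WT. Of 11 tested, 5 rose and 1 fell, against 4.41% and 4.04% of all tested genes, with a median log2 change of 0.98. *Opn1mw*, the opsin for middle wavelengths, held 5.62, 6.01 and 6.19 CPM at P10, just above the minimum of 5 CPM, and 120.3, 113 and 118 CPM at P21. The change of 4.28 ± 0.0707 log2 (FDR 6.43e-12) exceeded that of WT by 1.04 ± 0.0993 (FDR 7.32e-06). WT held 25.9, 25.0 and 21.1 CPM and then 229, 222 and 229 CPM, and *E168d2neo/+* went from 24.7% to 51.6% of it. Cone arrestin, *Arr3*, rose from 19.3, 16.7 and 17.5 to 159, 135 and 145 CPM and from 30.2% to 54.5% of WT. The inhibitory subunit of cone PDE6, *Pde6h*, rose from 15.8, 15.8 and 15.7 to 58.8, 50.2 and 54.0 CPM and from 25.1% to 47.3% of WT. For all 3 genes the P21 libraries were still entirely below those of WT, with FDR at most 2.63e-06.

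For other cone genes the distance to WT was not found to change. *Opn1sw*, the opsin for short wavelengths, had 70.3, 69.9 and 61.7 CPM at P10 and 139, 117 and 144 CPM at P21, a log2 change of 0.98 ± 0.0836 that stayed under the 2-fold limit. In WT it had 219.9, 209 and 206 and 377, 423 and 349 CPM, so that it was at 31.8% and 34.9% of WT. Its exons overlap those of *Calu* on the opposite strand, and whether counting used strand is not given in the sources used here. *Gnat2*, the alpha subunit of cone transducin (mm9 chr3), rose from 29.1, 29.4 and 30.4 to 72.9, 65.0 and 69.7 CPM, and WT from 60.8, 60.4 and 60.0 to 164, 164 and 156 CPM. It was at 49.0% and then 43.0% of WT. The differences between the changes were 0.14 ± 0.113 for *Opn1sw* and -0.19 ± 0.0722 for *Gnat2* (FDR 0.526 and 0.136). Within phototransduction the middle wavelength opsin thus gained on WT by a called difference and the short wavelength opsin did not, though these genes were not tested against each other.

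The cone channel subunit *Cnga3* went from 4.79 to 4.89 to 7.13 to 7.96 CPM, from 32.3% to 43.4% of WT, with a difference of 0.42 ± 0.13 that missed the threshold (FDR 0.0697). Its partner *Cngb3* was above WT, at 207% of it at P10 and 182% at P21. The cone PDE6 subunit *Pde6c*, the transducin gamma subunit *Gngt2* and the exchanger *Slc24a2* had log2 changes of 0.57, -0.47 and 1.4, of which only that of *Slc24a2* was called. *Gnb3*, the beta subunit of cone transducin, also found in bipolar cells, fell from 780.4, 889.6 and 806 to 331, 349.6 and 319.7 CPM (log2 -1.31 ± 0.0643). It fell by more than in WT (difference -0.56 ± 0.0779, FDR 0.000519), from 126% to 85.2% of WT. The cone list's median ratio to WT was -1.03 ± 0.033 at P10 and -0.87 ± 0.12 at P21, with 8 and 9 of 11 genes below WT by FDR, against 11.1% and 5.67% of all genes.

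**Figure D3:**
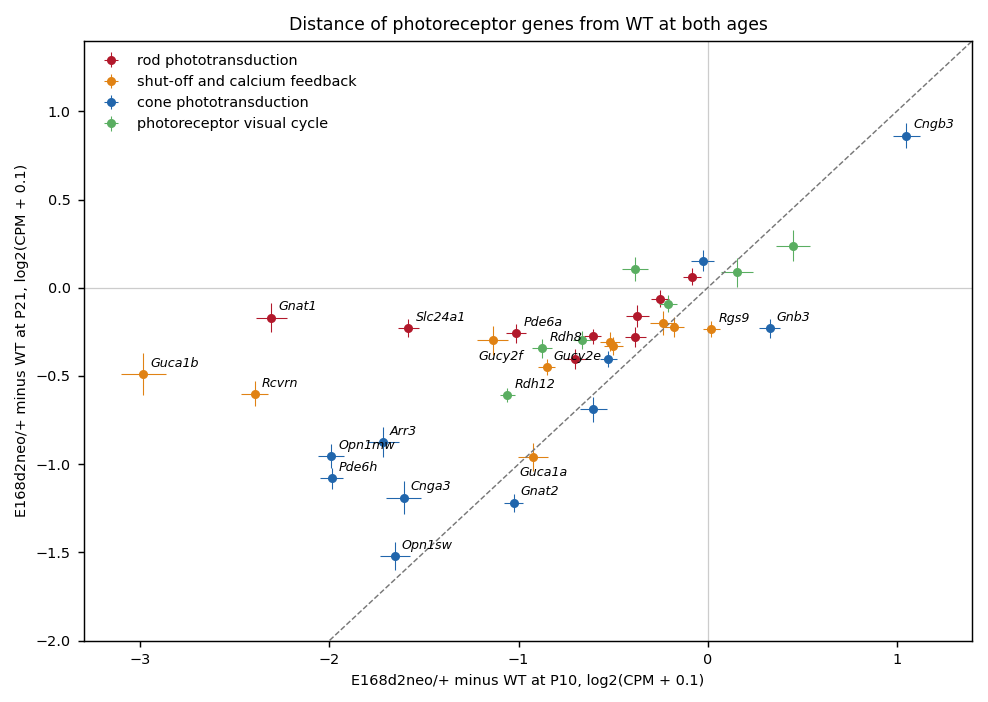
Log2 distance of *E168d2neo/+* from WT at P10 (horizontal axis) and at P21 (vertical axis) for 37 named genes of 4 photoreceptor lists, with SE as bars, a grey line at 0 on each axis and a dashed line of equal distance. *Gnat1*, *Guca1b*, *Rcvrn* and *Slc24a1* lie far left and well above the dashed line, while *Gnat2*, *Guca1a* and *Opn1sw* lie on or near the dashed line.

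In the visual cycle, the enzymes of photoreceptors that clear and reduce retinal came closer to WT. Of 7 genes 3 rose and 1 fell, against 4.41% and 4.04% of all tested genes. *Rdh12*, a retinol dehydrogenase, went from 107, 112 and 111 to 239, 243 and 246 CPM, from 48.0% to 65.6% of WT. *Rdh8*, its counterpart in the outer segment, went from 54.5% to 78.9%, and the transporter *Abca4* from 63.2% to 81.4%. The changes exceeded those of WT by 0.45, 0.53 and 0.37 (FDR 0.000175, 0.000647 and 0.00506). *Rdh11* had a log2 change of 0.61 and a difference of 0.49 (FDR 0.00852), and *Rbp3*, the retinoid carrier between photoreceptors and pigment epithelium, 0.58 and 0.12 (FDR 0.347). *Crabp1*, which binds retinoic acid and is found in amacrine cells as well, fell (log2 -2.18), with -2.11 in WT, and *Rdh10* had -0.83 with -0.61 in WT.

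Outer segment and synaptic genes followed. Of 24 outer segment and cilium genes 7 rose and 0 fell, against 4.41% of all tested genes called higher. The change of 10 exceeded that of WT by FDR while 0 fell short of it, against 3.59% and 2.52% of all genes. *Aipl1*, the chaperone of PDE6, held 207, 239.9 and 212 CPM and then 729.8, 746 and 702 CPM, from 48.1% to 81.7% of WT. *Nxnl1*, the gene of a rod-derived cone viability factor, went from 40.7% to 76.3%, and *Fscn2*, which bundles actin, from 35.5% to 60.0%. *Reep6* rose by 1.56 log2 and was at 92% and 113% of WT.

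Among 17 channel and synapse genes 6 rose and 0 fell, against 4.41% called higher over all genes. *Kcnj14*, an inward rectifier potassium channel, held 2.42, 3.16 and 3.34 CPM at P10 and 337, 324 and 249 CPM at P21, the second largest rise of all (log2 6.62 ± 0.133, FDR 3.01e-11). *Kcnj14* too passed the filter through its P21 libraries alone. In WT it held 13.3, 14.2 and 11.2 and 314, 353 and 367 CPM, so that it went from 23.1% to 88.0% of WT and its P21 libraries overlapped those of WT. *Cabp4*, a calcium-binding protein of the photoreceptor synapse, went from 32.8% to 63.3% and *Cplx4*, a complexin of ribbon synapses, from 66.7% to 93.4%.

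Among transcription factors of photoreceptors more fell than rose. Of 16 tested, 1 rose and 6 fell, against 4.41% and 4.04% of all tested genes, with a median log2 change of -0.34 against -0.148 over all genes. *Otx2*, a homeodomain factor that specifies photoreceptors, fell from 744, 640.1 and 691 to 318, 309 and 320.3 CPM (log2 -1.13 ± 0.0627, FDR 5.10e-08), and WT from 476, 516 and 499.9 to 234, 219 and 219 CPM. It was above WT at both ages, at 139% and 141% of it. *Nr2e3*, which represses cone genes in rods, fell (log2 -1.43), as did *Prdm1*, which holds back the bipolar fate (-2.11), with -1.26 and -2.49 in WT. *Pias3* (-1.18), *Samd7* (-1.28) and *Rxrg* (-1.13) also fell. For *Rxrg* that exceeded the fall in WT at FDR 0.039, a call lost at FDR 0.06 to 0.103 in 6 of the 12 fits that left out a library.

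The factor that rose was *Esrrb*, an estrogen-related receptor of rods. Its P10 libraries held 40.1, 40.1 and 42.7 CPM and its P21 libraries 368, 362 and 283 CPM (log2 3.03 ± 0.091), and WT went from 81.6, 79.1 and 75.2 to 418, 382 and 426 CPM. It went from 52.1% to 82.6% of WT (difference 0.66 ± 0.113, FDR 0.0028). *Nrl*, the rod determinant, stood at 97.3% and 101% of WT, with 1160.1, 1297 and 1208 CPM at P10 and 1481, 1492 and 1483 CPM at P21. *Mef2c* went away from WT, with 14.1, 11.6 and 14.8 CPM at P10 and 27.9, 17.7 and 21.5 CPM at P21 against 20.8, 21.1 and 21.2 and 66.3, 63.7 and 66.8 CPM in WT. It was at 64.0% and then 34.1% of WT (difference -0.93 ± 0.174, FDR 0.00504).

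The remaining members of the list changed by less than 2-fold. The thyroid hormone receptor *Thrb*, which cones need for the middle wavelength opsin, had 0.32 log2, *Rorb* -0.32, *Neurod1* -0.36, *Mef2d* 0.08, *Ppara* 0.15 and *Ankrd33* 0.72. *Ankrd33* changed by 0.39 more than in WT (FDR 0.00815). *Ppara* stayed low, at 40.0% of WT at P10 and 41.8% at P21.

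Fewer genes differed from WT at P21 than at P10. At P10, 2846 of 12380 genes differed from WT by FDR (23%), 1476 higher (11.9%) and 1370 lower (11.1%). At P21, 1365 did (11%), 663 higher (5.36%) and 702 lower (5.67%). With each library centred on its median 36.3% of the genes called at P21 were higher, in place of 48.6%. The P10 count was 1792 without WT P10 replicate B, and the P21 count was 857 without *E168d2neo/+* P21 replicate B. The higher genes numbered 944 and 811 at P10 without WT replicate A or B. At P21 they numbered 406 and 330 without *E168d2neo/+* replicate A or B and 440 and 432 without WT replicate A or B.

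With the 2-fold limit added, 101 genes were lower than WT at P10 (0.816%) and 43 higher (0.347%), and at P21 68 were lower (0.549%) and 21 higher (0.17%). Of the 101 lower at P10, 38 were still lower by 2-fold at P21, 85 were lower by FDR and 16 did not pass the test. Their median distance was -1.45 at P10 and -0.89 at P21. A change toward WT passed the interaction test in 52 of them and a change away from WT in 8. Over all genes 3.59% were called more positive and 2.52% more negative. Of the 43 higher at P10, 8 were still higher by 2-fold at P21 and 30 did not pass the test, with medians of 1.35 and 0.32. These genes were chosen for their distance at P10, so that the P10 medians and the narrowing describe the choice as well. The P21 distances come from other libraries, but their tests share 1 estimate of the spread with the P10 libraries and are not independent of the choice.

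The largest changes were not all in genes of the photoreceptor lists. After *Guca1b*, *Kcnj14* and *Gnat1*, the largest rises were those of 2610034M16Rik (5.12), *Sec1* (5.05), BC030499 (4.45), *Gramd2* (4.44), *Fam107a* (4.29), *Opn1mw* and *Sntg2* (4.17). *Sec1* held at most 0.330 CPM in a P10 library and up to 12.8 CPM at P21. *Guca1b*, *Kcnj14*, *Sec1*, *Gramd2*, *Fam107a* and *Sntg2* passed the filter of 5 CPM through P21 alone, so that they entered the test through the age at which they were high. The same holds for falls of genes that were under 5 CPM at P21. Among the largest falls *Tmem92* went from 27.1, 35.6 and 28.2 CPM to 0, 0 and 0.0396 CPM, and AA623943, Gm11546 and Gm11545 likewise held under 0.08 CPM in every P21 library, fewer than the 3 reads taken as the lower limit. No fold is given for these 4 genes. *H19*, an imprinted transcript of fetal growth, fell (log2 -5.19). *Fabp7*, a fatty acid binding protein of immature glia, fell (log2 -5.03) from 70.7, 67.3 and 70.0 CPM at P10 to 1.54, 2.58 and 2.10 CPM at P21. *Slc27a2* (-4.26), 3110035E14Rik (-4.01), F730016J06Rik (-3.88) and *Atp13a4* (-3.83) completed the 10 largest falls.

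Genes of immature and dividing cells fell. Of 23 neuron differentiation genes 15 fell and 0 rose, with a median log2 change of -1.17 and of -1.18 in WT, against 4.04% of all tested genes called lower. The tubulin *Tubb2b* went from 233, 289.5 and 253 to 17.8, 20.5 and 20.9 CPM. *Sox4*, a factor of young neurons, went from 137, 162 and 128 to 16.8, 19.4 and 14.0 CPM, and in both genes the ages were far apart. *Nnat* and the Notch target *Hes5* also fell (log2 -3.13 and -2.66). A difference from the change in WT was called in 1 gene of the list. Of 9 cell division genes 4 fell and 0 rose, read against the same 4.04%. They were the proliferation marker *Mki67* (-2.90), *Top2a* (-2.12), *Mcm6* (-1.17) and *Kif19a* (-3.46). *Kif19a* is a kinesin that was placed on this list but is not a marker of dividing cells, and the count includes it. The median log2 change of this list was -0.97, and -1.15 in WT. By FDR the change was more positive than in WT in 3 of the 9, against 3.59% of all genes, and more negative in 0.

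Of 14 Muller glia genes 5 rose and 0 fell, against 4.41% called higher over all genes, and the change of 5 fell short of that in WT by FDR (2.52% of all genes). *Glul*, the glutamine synthetase of these glia, went from 594, 596 and 657 to 2122, 2150.2 and 2163 CPM, and WT from 507, 455 and 455 to 2281, 2157 and 2074 CPM. Its log2 distance from WT was 0.38 ± 0.0557 at P10 and -0.02 ± 0.0557 at P21 (difference -0.40 ± 0.0787, FDR 0.00689). *Clu*, of clusterin, stood at 137% of WT at P10 and did not pass the test at P21 (FDR 0.998). *Aqp4*, the water channel of glial end feet, went from 138% to 108% of WT, and *Kcnj10* from 107% to 98.8%. At P10 8 of the 14 were above WT by FDR (11.9% of all genes) and at P21 1 was (5.36%).

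Microglia genes fell, 5 of 6 tested against 4.04% of all tested genes, among them the complement genes *C1qc*, *C1qb* and *C1qa* (-1.74, -1.34 and -1.31) and *Cd68* (-1.13), and a difference from WT was called in 0 of them. The summed level of the microglia list was 82.2 to 83.0 CPM at P10 and 36.1 to 38.8 CPM at P21. Genes of the circadian clock rose, 7 of 14 against 4.41% of all tested genes, led by *Usp2* (3.30), *Hlf* (1.99), *Per2* (1.66) and *Nr1d1* (1.5), with a list median of 0.95 and of 1.16 in WT. The part of the hour of collection in these values was not tested. Of 8 immediate early genes, read against the same share, 3 rose, *Fos* (2.13), *Npas4* (1.32) and *Egr1* (1.09), and *Jun* fell (-1.08). The call of *Egr1* was lost at log2 0.889 to 0.979 in the 3 fits without P10 replicate C, P21 replicate A or P21 replicate B.

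In energy metabolism, 4 of 21 genes rose and 0 fell, against 4.41% called higher over all genes. *Hk2*, the hexokinase found in photoreceptors, went from 23.2, 24.5 and 18.5 to 407, 342 and 257 CPM (log2 3.9 ± 0.147) and from 52.2% to 95.2% of WT. *Aldoc* rose by 1.60, the lactate transporter *Slc16a1* by 1.57 and *Eno2* by 1.01, a call that was lost at log2 0.96 without P10 replicate A.

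Calls in the lists of other neurons and supporting cells are to be read against the 4.41% of all tested genes called higher and 4.04% called lower. Of 13 bipolar cell genes *Gng13* (1.56) and *Sebox* (1.53) rose. Among 9 amacrine cell genes *Chat* (1.01) rose, a call lost without P10 or P21 replicate A, among 6 horizontal cell genes *Calb1* (1.28) rose while *Ndrg1* (-1.62) and *Angpt2* (-1.26) fell, and among 10 ganglion cell genes *Nefh* (1.24) rose. Of 10 vessel genes *Ly6c1* (2.55) rose and *Cdh5* (-1.30), *Cldn5* (-1.19) and *Kdr* (-1.18) fell. Of 23 extracellular matrix genes *Fbn1* rose (1.64) and *Col2a1* (-1.22), *Bgn* (-1.15) and *Fbn2* (-1.05) fell. The call of *Fbn2* was lost in 3 fits that left out a library, at log2 -0.986 to -0.975. Of the gliosis, blood, optic nerve myelin, lens and sex lists 0 genes were called.

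Pigment epithelium and melanocyte genes were above WT at P10 and not at P21. Their summed level was 302 to 360.3 CPM in *E168d2neo/+* at P10 and 321 to 370.0 CPM at P21, and 105 to 178 CPM and 317 to 629 CPM in WT, so that the ages overlapped in *E168d2neo/+* and not in WT. At P10 8 of 10 were above WT by FDR, against 11.9% of all genes, and at P21 0 were, against 5.36%. *Lrat* was the 1 gene of the list that rose in *E168d2neo/+* (5.60, 10.9 and 13.9 CPM at P21, and 4.16 CPM or less at P10). *Lrat* passed the filter of 5 CPM through its P21 libraries alone, the age at which it was high. *Pmel* held 55.2, 73.2 and 59.7 CPM at P10 and 53.4, 46.2 and 19.9 CPM at P21, and 31.0, 17.6 and 23.4 and 33.0, 132 and 149 CPM in WT. Its difference of -2.65 ± 0.624 (FDR 0.0195) was lost without WT P10 replicate B (FDR 0.0608) and without WT P21 replicate B (FDR 0.0505). The part of attached pigment epithelium in these values was not tested.

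**Figure D4:**
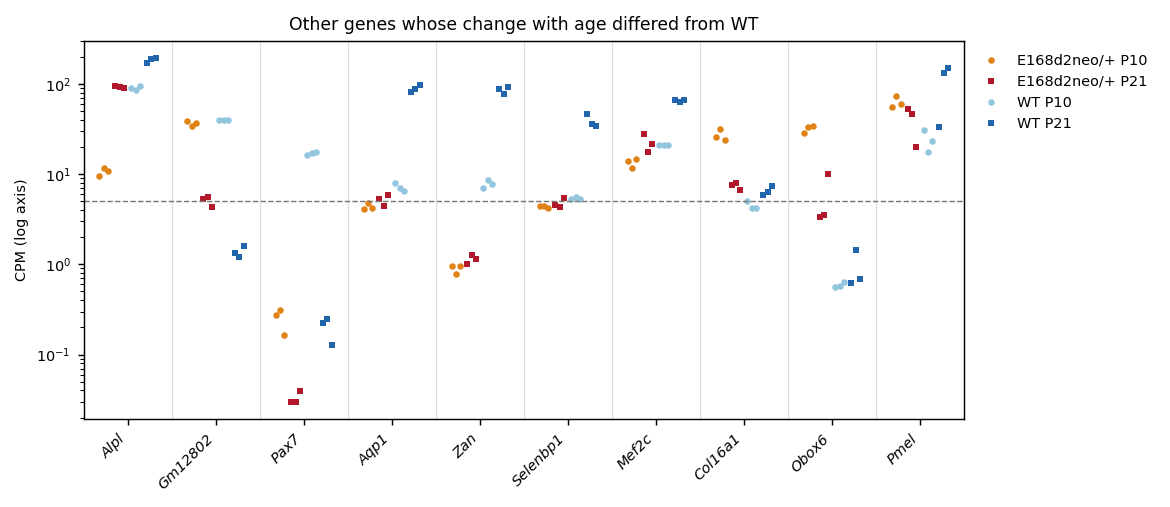
CPM on a log axis of 10 genes in each of 12 libraries, 1 point a library, circles for P10 and squares for P21, with the minimum of 5 CPM as a dashed line and values of 0 drawn at 0.03. *Aqp1*, *Zan*, *Selenbp1* and *Mef2c* are highest in WT at P21, and *Obox6* and *Col16a1* are highest in *E168d2neo/+* at P10.

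Among the genes whose change differed most from WT, *Alpl*, the alkaline phosphatase of bone and kidney, came nearer to it. It held 9.46, 11.7 and 10.9 CPM at P10 and 93.9, 92 and 90.2 CPM at P21, and WT 91.0, 85.9 and 94.2 and 169, 191 and 194 CPM. It went from 11.8% to 49.9% of WT, with a difference of 2.08 ± 0.103 (FDR 8.15e-09). Gm12802 fell less far than in WT, from 38.5, 34.5 and 36.6 to 5.31, 5.58 and 4.32 CPM against 39.4, 39.7 and 39.4 and 1.34, 1.20 and 1.58 CPM. *Pax7* had a positive difference (4.24 ± 0.459, FDR 3.06e-05) without a gain of its own. WT went from 16.5, 17.3 and 17.6 to 0.224, 0.250 and 0.128 CPM, while *E168d2neo/+* held 0.274, 0.311 and 0.165 and then 0, 0 and 0.0396 CPM, at or near the level of 3 reads. With 0.01 CPM added in place of 0.1 that difference was 2.51 (FDR 0.129).

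Some genes that were many times higher at P21 in WT stayed low in *E168d2neo/+*. *Aqp1*, a water channel, went from 8.02, 7.05 and 6.54 to 81.4, 88.6 and 97.0 CPM in WT and from 4.16, 4.76 and 4.17 to 5.26, 4.39 and 5.90 CPM in *E168d2neo/+*. *Zan*, the gene of zonadhesin, went from 6.96, 8.56 and 7.82 to 88.9, 77.3 and 93.1 CPM in WT and from 0.960, 0.777 and 0.949 to 1.01, 1.27 and 1.15 CPM in *E168d2neo/+*. *Selenbp1* went from 5.27, 5.54 and 5.25 to 46.0, 35.7 and 34.5 CPM in WT and from 4.39, 4.40 and 4.25 to 4.53, 4.35 and 5.42 CPM in *E168d2neo/+*. These 3 genes were thus at 5.82%, 1.32% and 12.3% of WT at P21, and at 60.6%, 11.5% and 81.2% at P10. Their differences were -3.38 ± 0.162, -3.14 ± 0.185 and -2.69 ± 0.165, each with FDR at most 3.73e-08. In *E168d2neo/+* none of the 3 reached 5 CPM in all libraries of an age, so they were not among the 12190 genes tested there. Exons of *Zan* overlap those of *Ephb4* on the opposite strand. The same holds for *Pmel* with *Dgka*, *Gm12802* with 2210012G02Rik, *Gngt2* with *Abi3* and *Abca4* with *Gm16078*. It holds as well for *Pias3* with *Nudt17*, *Usp2* with *Rnf26* and *Nr1d1* with *Thra*. Other named genes have such overlaps too, among them *Sec1*, BC030499, *Slc27a2*, *Glul*, *Nnat*, *Hes5*, *Gng13*, *Fbn1*, *Egr1* and *Jun*. Exons of *Nr2e3* and *Neurod1* overlap those of other genes on the same strand. The counts of such genes may be affected.

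*Obox6* and *Col16a1* were above WT at P10 and fell. The oocyte homeobox gene *Obox6* (mm9 chr7:16418595-16425027) held 28.8, 33.2 and 34.4 CPM at P10 and 3.38, 3.54 and 9.98 CPM at P21, the last of these, replicate C, being the highest. WT held 0.564, 0.575 and 0.642 and 0.628, 1.45 and 0.683 CPM. The 24 libraries of the series that are not *E168d2neo/+* held from 0.205 CPM, in *R90W/+* at P21, to 4.16 CPM, in *R90W/W* at P10. *E168d2/+*, with the same mutation and no cassette, held 0.694 to 1.42 CPM at P10. The collagen gene *Col16a1* held 25.5, 31.3 and 23.9 CPM at P10 and 7.57, 8.04 and 6.73 CPM at P21, and WT 5.08, 4.17 and 4.20 and 5.83, 6.39 and 7.38 CPM. In *E168d2/+* it stood at 53.2 to 59.3 CPM at P10 and at 55.0 to 103 CPM at P21, so that the P21 libraries of the 2 heterozygotes did not overlap.

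With all 12 libraries fewer differences in change were called against *E168d2/+* than against WT, but this order rested on 1 library of *E168d2/+*. The SE of the difference was 0.434 for *Gnat1* and 0.432 for *Guca1b* against *E168d2/+*, and 0.117 and 0.168 against WT. The counts are thus no measure of likeness. The change with age differed between *E168d2neo/+* and *E168d2/+* in 135 of 12320 genes (1.1%), 38 more positive (0.308%) and 97 more negative (0.787%) in *E168d2neo/+*. That count moved with most single libraries. *E168d2/+* P21 replicate B held 513 CPM of *Rcvrn* against 115 and 165 CPM in its fellow libraries, and without it 829 genes differed, 269 more positive and 560 more negative. It was 22 without *E168d2neo/+* P21 replicate B and between 35 and 71 when any of 8 further libraries was left out, and 132 and 196 without *E168d2neo/+* P21 replicate C or *E168d2/+* P10 replicate C. *Gnat1* held 5251, 8451 and 6523 CPM in the P21 libraries A, B and C of *E168d2/+* against 9333, 8969 and 8828 CPM in *E168d2neo/+*, and *Guca1b* 132, 428 and 160.4 against 649.9, 565 and 645 CPM. In P10 libraries *Gnat1* overlapped between the genotypes, with 73.5 to 239.8 and 113 to 149 CPM. For neither gene was the difference in change called with all 12 libraries.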

How the data were processed

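RNA-seq was done on whole mouse retina, with 3 libraries for each genotype and age, and each library was a separate pool of retinas. Per the labels and the study's methods, alignment was to mm9 (TopHat2 2.0.5) and counting by gene with HTSeq 0.6.1p1, and the authors deposited CPM values, scaled to library totals with edgeR 3.6.8. Whether counting used strand is not given in the sources used here. Raw counts were not used here, so that no count test was run.

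Genes with at least 5 CPM in all 3 libraries of either group were tested on log2(CPM + 0.1) with limma 3.58.1 (limma-trend, two-sided, in R 4.3.3) and Benjamini-Hochberg adjustment over all tested genes. Age changes were fitted on the 6 libraries of a genotype, and were called at an FDR of 0.05 or less and 2-fold or more. Differences of age change and distances from WT were fitted on 12 libraries and called by FDR alone. P-values measure the spread between these pools. Depth was estimated from the smallest CPM step, and CPM totals were not otherwise rescaled. The fit was tested on simulated data. Named genes were the members of the rod, cone, shut-off, visual cycle and transcription factor lists, the 10 largest rises and 10 largest falls without overlap between ages, the 6 largest positive and 6 largest negative differences from WT, and up to 4 called members of each other list with the largest change. The members, lists and tests were chosen with earlier results of these data known. Calls were repeated with other added CPM, filters, scalings and variance models, with the replicate letter as a block and without each library. For some genes of the lists no values are reported here, though the list counts include them.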

Additional observations from a re-analysis of the deposited data

Results flagged for a closer look

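The change from P10 to P21 differed between *E168d2neo/+* and WT in 757 genes and between *E168d2neo/+* and *E168d2/+* in 135, each by the interaction of genotype and age in limma. When 1 library was left out these counts ranged from 415 to 900 and from 22 to 829. Groups held 3 libraries and were not searched by a rule for a single outlying library, though some libraries that stood apart are named above.

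Among the named genes of the rod, cone, shut-off, visual cycle and transcription factor lists and the genes with the largest differences, 32 differed from WT in their change with age. Of the other named genes a further 13 did, 10 with a more positive and 3 with a more negative change. The genes with the largest differences were picked from those called, so that their part of the 32 and its signs was fixed by the choice. Over all 12380 genes 6.11% were called. Among the 32, the difference in log2 change, *E168d2neo/+* minus WT, was positive in 22. Outside the photoreceptor lists these were *Pax7* (4.242), *Alpl* (2.075) and *Gm12802* (1.923). Calcium sensors and cyclases were *Guca1b* (2.497), *Rcvrn* (1.795), *Gucy2f* (0.839) and *Gucy2e* (0.402). Rod genes were *Gnat1* (2.138), *Slc24a1* (1.354), *Pde6a* (0.754), *Cngb1* (0.332) and *Pde6g* (0.296). Cone genes were *Opn1mw* (1.038), *Pde6h* (0.908) and *Arr3* (0.844). Genes of the visual cycle were *Rdh8* (0.533), *Rdh11* (0.49), *Rdh12* (0.45) and *Abca4* (0.367). The channel gene *Kcnj14* had 1.891, and the regulators *Esrrb* and *Ankrd33* had 0.655 and 0.393.

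The difference was negative in the other 10 of these 32 genes. It was -0.254 for *Rgs9*, -0.558 for *Gnb3*, -0.576 for *Rxrg* and -0.926 for *Mef2c*. It was -2.366 for *Col16a1*, -2.647 for *Pmel* and -2.695 for *Selenbp1*. For *Zan* it was -3.136, for *Obox6* -3.143 and for *Aqp1* -3.375.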

How the results depend on the processing

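No called value of a named gene reversed. Of the age changes of 126 named genes, 1984 values under other settings stayed on the same side of the threshold, 20 no longer passed it and 12 newly passed it. Of the differences from WT of 62 genes these were 1200, 31 and 9. Leaving out 1 library gave 997 to 1066 genes changed with age in *E168d2neo/+* (524 to 565 higher, 473 to 512 lower) and 1065 to 1110 in WT (569 to 617 higher, 480 to 502 lower). The change differed from WT in 415 to 900 genes (241 to 583 higher, 167 to 341 lower) and from *E168d2/+* in 22 to 829 (3 to 269 higher, 19 to 560 lower). The distance from WT was called in 1792 to 2901 genes at P10 (811 to 1587 higher, 981 to 1375 lower) and in 857 to 1149 at P21 (330 to 597 higher, 527 to 592 lower). The rod list's median lay between 1.04 and 1.07 and the cone list's between 0.92 and 1.07. Centring each library on its median gave a rod list median of 1.2, and 72 genes with a change more positive than in *E168d2/+*.

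With the replicate letter as a block, 1033 genes changed with age (540 higher, 493 lower), 584 differed from WT in that change and 67 from *E168d2/+* (16 higher, 51 lower). The deviations of same-lettered P10 and P21 libraries correlated at 0.123 for A, 0.189 for B and 0.061 for C, so the letters were not taken as pairs, though every library correlated best with its own letter, a hint from the data and not from the design. A count test with edgeR was not run, because the deposited values are CPM. At these depths a level under 3 reads could not be told from 0.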
